A study of Homo sapiens with 30 samples.

Results

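Rh30 is an established alveolar rhabdomyosarcoma cell line that carries the PAX3-FOXO1 fusion gene beside a normal FOXO1 gene. The comparison described here is 1 day of dTAG against DMSO in the FOXO1-FKBP line, a Rh30 derivative in which FOXO1 bears an FKBP degradation tag. Its groups are FOXO1-FKBP cells given 500 nM dTAG for 24 h and FOXO1-FKBP cells given DMSO, with 2 samples each, which makes 4 of the 30 samples of the series. All genes of the deposited table enter, and read-through gene names are left out by rule. Of 23262 genes listed, 11943 averaged 50 or more normalised estimated counts across the line's 5 columns and met the other filters. The same line was also sampled after 2, 6 and 72 h of 500 nM dTAG. The PAX3-FOXO1-FKBP line, in which the fusion bears the tag, was sampled in 500 nM dTAG at the same times and in DMSO. Parental Rh30 and 4 PAX3-FOXO1-FKBP clones, all labelled DMSO, make up the other 10 samples. All these cells keep the Rh30 background, the fusion included, and the sources used here do not say whether the FOXO1-FKBP line is 1 clone. FOXO1 protein was not measured here, so loss of FOXO1 stands for dTAG given to this line.

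FOXO1 is a forkhead transcription factor. When insulin or growth factors activate PI3K and AKT, AKT phosphorylates FOXO1, 14-3-3 proteins bind it and it leaves the nucleus. In the nucleus it is known to switch on genes of cell cycle arrest, oxidative defence, autophagy and fasting metabolism, and in skeletal muscle genes of atrophy such as FBXO32 and TRIM63. PAX3-FOXO1 joins the DNA-binding part of PAX3 to the transactivation part of FOXO1, so the fusion lacks the intact forkhead domain through which FOXO1 binds its own sites.

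One deposited column held both samples of a condition. No replicate spread could be taken from it, no p-value is given, and "higher" and "lower" describe those columns only. Estimated counts summed to 25863451 at 24 h of dTAG and 26555143 in DMSO, with 25999630 to 27381073 in the other 3 columns of the line. All 12 markers of alveolar rhabdomyosarcoma lines passed the filter, MYOD1 at 39448 normalised estimated counts at 24 h and 33779.9 in DMSO. Of the other cell types' markers, 0 of 20 for blood, 1 of 14 for epithelium (EPCAM, 140.5 at 24 h and 148 in DMSO) and 2 of 10 for endothelium passed. Of 16 fibroblast and matrix genes, which mesenchymal tumour cells can also express, 12 passed. In RNA from many cells, fewer cells of a type and less RNA per cell cannot be told apart.

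FOXO1 mRNA was nearly the same in both columns. It had 2686 normalised estimated counts at 24 h and 2640 in DMSO, a log2 change of 0.025, with 2604, 2627 and 2467 at 2, 6 and 72 h. The tag acts on protein, so the mRNA level does not check the labels, and reads from the 3′ part of FOXO1 can also come from the fusion transcript. FOXO3, the other broadly expressed member of the family, had 1249 at 24 h and 1273 in DMSO (log2 change -0.027). FOXO4 had 351 at 24 h and 397 in DMSO (log2 change -0.18). FOXO4 was lowest at 2 h, at 295, where its log2 change against the same DMSO column was -0.43.

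Genes that FOXO factors are known to activate or repress lay on both sides of DMSO after 1 day. Of 53 such genes, 42 passed the filter, and at 24 h 21 lay above and 21 below the DMSO column. Their median log2 change was 0.0024, beside -0.0044 over all genes tested. The range ran from -0.55 for SEPP1 to 0.49 for ULK1, and 0 of the 42 genes reached 1.5-fold. Over all genes tested, 1.09% were at least 1.5-fold higher and 0.569% at least 1.5-fold lower. The 2 libraries of a single DMSO-labelled group, over 5 such pairs in the clone table, gave medians of the same 42 genes of up to 0.14 from 0.

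SEPP1, the plasma selenoprotein P made mostly by liver, had 46.5 normalised estimated counts at 24 h and 68.9 in DMSO, with 66.2 and 68.4 at 2 and 6 h and 43.4 at 72 h. Both late columns thus lay below the 3 earlier ones. ULK1, the kinase that starts autophagy, had 1487 at 24 h and 1061 in DMSO, with 1157, 1072 and 1321 at 2, 6 and 72 h. NOTCH3, a Notch receptor, had 6654 at 24 h and 4889 in DMSO (log2 change 0.44), while the columns at 2, 6 and 72 h held 4659, 4336 and 4084. TRIB1, a pseudokinase that guides protein breakdown, had 94.6 at 24 h and 71.0 in DMSO (0.40), and 87.8 at 6 h. At 24 h the change of each of these 4 genes stayed under 1.5-fold. Corrected for transcript length and GC content, ULK1 had 0.20 and NOTCH3 0.099.

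Among the metabolic and stress targets, PDK4, which keeps pyruvate out of the mitochondrial oxidation route, had 289 at 24 h and 305 in DMSO. TXNIP, an inhibitor of thioredoxin and of glucose uptake, had 3815 at 24 h and 3909 in DMSO. The antioxidant enzymes SOD2 and CAT had log2 changes of 0.10 and -0.015, and PRDX3, a mitochondrial peroxidase, -0.21. The cell cycle inhibitors CDKN1A (p21) and CDKN1B (p27) had 0.14 and -0.078, and the D cyclins CCND1 and CCND2, which FOXO factors are known to repress, -0.13 and -0.28. The apoptosis genes BCL2L11 (BIM) and BBC3 (PUMA) had 0.15 and -0.13. IRS2 and INSR, which carry the insulin signal, had -0.044 and -0.12. Directions thus differed within the antioxidant, cell cycle inhibitor and apoptosis genes, while both D cyclins and both insulin signal genes lay below 0.

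Over the 42 FOXO-responsive genes the median was -0.057 at 2 h and -0.093 at 72 h, each against the same DMSO column. Within the list, 5 of the genes that were lower at 2 h than at 24 h are given here. They were picked after their values were seen, and other genes of the list were lower at 2 h too, among them NOTCH3, ULK1 and MXI1. PDK4 had a log2 change of -0.86 at 2 h and -0.078 at 24 h. CCNG2, a cyclin of arrested cells, had -0.46 at 2 h and -0.15 at 24 h. KLF9, a Krüppel-like factor, had -0.42 at 2 h and 0.0093 at 24 h. CITED2, a co-regulator of CBP and p300, had -0.41 at 2 h and -0.039 at 24 h. TXNIP had -0.33 at 2 h and -0.035 at 24 h. At 24 h all 5 genes lay within 0.15 of DMSO on the log2 scale. At 72 h they had -0.32 (PDK4), -0.22 (CCNG2), -0.32 (KLF9), -0.37 (CITED2) and -0.34 (TXNIP).

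**Figure D1:**
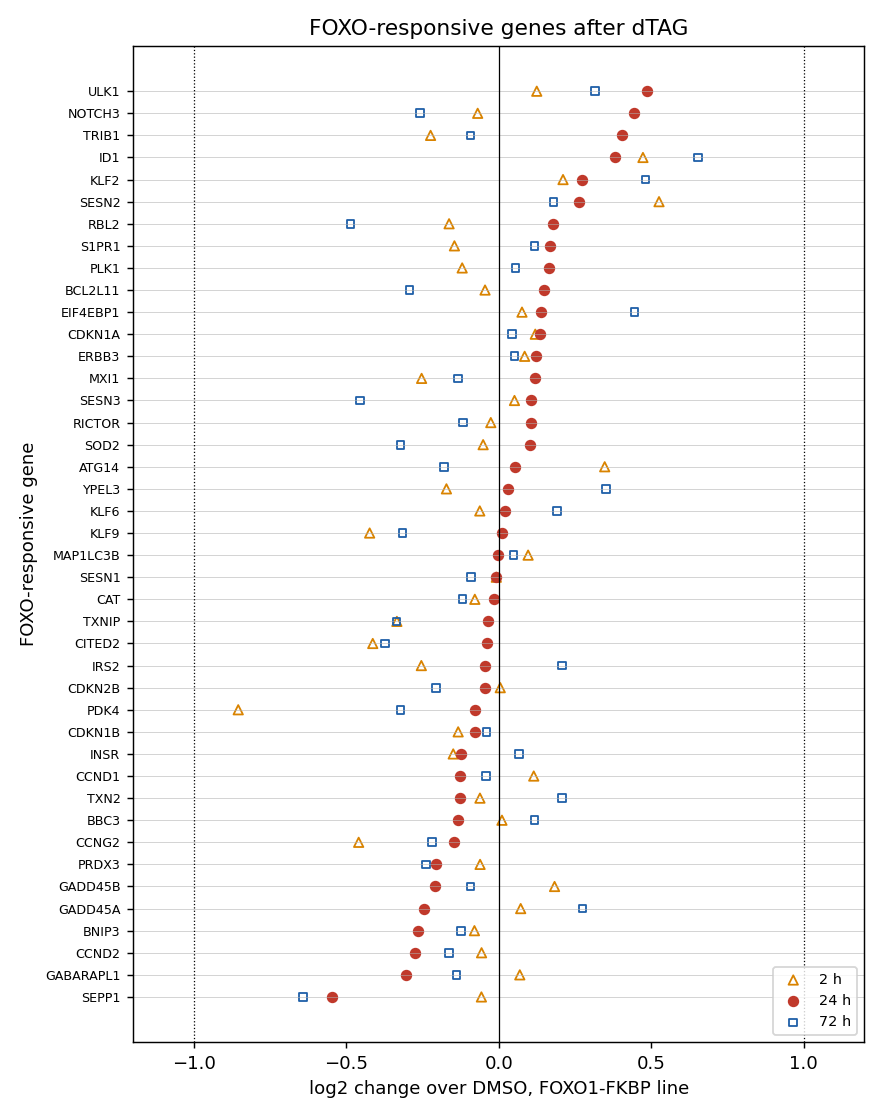
Log2 change over DMSO in the FOXO1-FKBP line for the 42 FOXO-responsive genes that passed the filter, at 2 h (triangles), 24 h (filled circles) and 72 h (squares), ordered by the 24 h value; 1 pooled column per condition, so there are no error bars. The 24 h values run from -0.55 (SEPP1) to 0.49 (ULK1), and the lowest value drawn is PDK4 at 2 h (-0.86).

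The other 11 FOXO-responsive genes fell below the filter and were given no fold change. FBXO32 and TRIM63, the muscle ubiquitin ligases of atrophy, had 23.0 and 12.3 normalised estimated counts at 24 h and 23.3 and 8.94 in DMSO. PIK3IP1 had 30.4 at 24 h and 26.0 in DMSO, and PPARGC1A 13.9 at 24 h and 10.9 in DMSO. BCL6 had 7.07 at 24 h and 5.72 in DMSO. TNFSF10, FASLG, G6PC, PCK1, IGFBP1 and POMC had at most 2.38 in either column.

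The core forkhead motif GTAAACA, searched on both strands from 250 bases before to 50 after the start of each gene in RefSeq (GRCh38.p14), occurred for 4 of the 34 tested FOXO-responsive genes with a promoter in that table (11.8%). It occurred for 290 of 8607 tested genes with a promoter (3.37%) and for 1145 of all 27305 genes in the table (4.19%). The insulin response core TGTTTTG occurred for 3 of the 34 genes (8.82%), 4.62% of tested genes and 6.05% of all. In 3 of the 4 genes GTAAACA lay upstream of the start, and those stretches are shown because they are the direct binding letters for the factor that was tagged, with the motif in capitals.
TXNIP, chr1:145996657-145996743, minus strand: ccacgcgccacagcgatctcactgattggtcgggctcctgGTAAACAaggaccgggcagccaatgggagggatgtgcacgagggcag
BCL2L11, chr2:111120664-111120737, plus strand: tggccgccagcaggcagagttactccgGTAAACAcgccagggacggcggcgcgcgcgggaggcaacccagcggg
MXI1, chr10:110210040-110210126, plus strand: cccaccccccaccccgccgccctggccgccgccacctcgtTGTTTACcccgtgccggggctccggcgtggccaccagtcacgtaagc
In MXI1, a MYC antagonist, the motif is read on the opposite strand. At 24 h the 3 genes had log2 changes of -0.035 (TXNIP), 0.15 (BCL2L11) and 0.12 (MXI1), and at 2 h -0.33, -0.045 and -0.25. A match describes these letters and no binding was measured.

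The insulin, PI3K and AKT pathway upstream of FOXO1 lay mostly above DMSO by small amounts. Of 41 genes listed, 35 passed the filter, 30 lay above 0 at 24 h and 5 below, with a median log2 change of 0.14 and 0 genes at 1.5-fold. Over all genes tested 49.2% lay above 0. TSC2, a brake on mTOR, had 2384 at 24 h and 1744 in DMSO (0.45). PDPK1, the kinase that activates AKT, had 1391 at 24 h and 1050 in DMSO (0.40). INPPL1, a lipid phosphatase, had 6783 at 24 h and 5439 in DMSO (0.32), and IGF2R, the receptor that clears IGF2, 11573 at 24 h and 9402 in DMSO (0.30). In these 4 genes the 24 h column was above all 4 other columns, as it was for 29.9% of all genes tested. Their transcripts were long, with a list median of 6390 bases against 3509 over all genes with a length. After correction for transcript length and GC content the list median was 0.059, and TSC2, PDPK1, INPPL1 and IGF2R had 0.19, 0.25, 0.086 and 0.12. Between the 2 libraries of a DMSO-labelled group of the clone table the median of these 35 genes differed by up to 0.44, more than at 24 h.

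Direct regulators and partners of FOXO (23 of 24 genes tested) had a median of -0.064. The acetyltransferases EP300 and CREBBP had 0.37 and 0.31, and the 14-3-3 genes YWHAB and YWHAE -0.29 and -0.19. The length and GC correction left 0.18 for EP300, 0.049 for CREBBP and -0.19 for YWHAB. Autophagy genes (32 of 35) had a median of -0.014, with 15 above and 17 below 0. ATG2A, a lipid transfer protein of the growing autophagosome, had the highest value of that list (0.53, and 0.21 after the correction).

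Few genes differed by 2-fold after 1 day. At least 2-fold, 10 genes were higher (0.0837% of the 11943 tested) and 10 were lower (0.0837%). The filter's mean includes the 24 h column, which favours genes high at 24 h, so the 2 shares cannot be compared as equal. At least 1.5-fold, 130 were higher and 68 lower, so 98.3% of genes lay within 1.5-fold of DMSO. Scaling by library totals in place of TMM raised log2 changes by up to 0.074 and gave 19 higher and 8 lower genes past 2-fold, so that 70.4% of those genes were higher. In the same line and against the same DMSO column, the 2 h column held 2 genes at least 2-fold above (0.0167%) and 3 below (0.0251%). The 6 h column held 1 above (0.00837%) and 1 below (0.00837%), and the 72 h column 3 above (0.0251%) and 41 below (0.343%). The SD of log2 changes over genes was 0.15 at 2 h, 0.15 at 6 h, 0.23 at 24 h and 0.25 at 72 h. Between the 2 libraries of a DMSO-labelled group in the clone table this SD was 0.16 to 0.45 over 5 groups. The libraries of parental Rh30, the most alike of those pairs, had 19 of 11691 genes past 2-fold either way (0.163%). The pairs of the 4 clones had 71 (0.607%), 116 (0.992%), 197 (1.69%) and 329 (2.81%), each more than the 20 genes of the 24 h comparison. These pairs set single libraries of other cells against each other, whereas each time-course column pools 2 samples. The 2 kinds of comparison are thus unlike, here and wherever same-group libraries are cited.

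**Figure D2:**
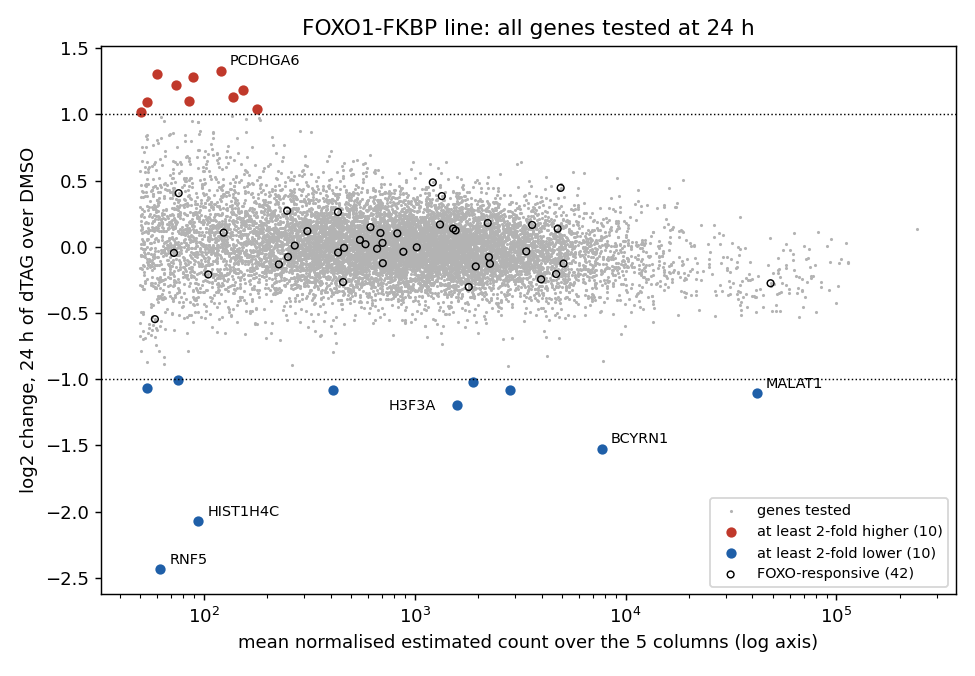
Log2 change of 24 h of dTAG over DMSO in the FOXO1-FKBP line (vertical axis) against the mean normalised estimated count over its 5 columns (horizontal log axis) for the 11943 genes tested, with the 10 genes at least 2-fold higher, the 10 at least 2-fold lower and the 42 FOXO-responsive genes marked. All 10 higher genes sit at low means, RNF5 is the lowest at -2.44, and the FOXO-responsive genes lie between -0.55 and 0.49.

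The 10 higher genes were all of low abundance, with 33.0 to 140.3 normalised estimated counts in DMSO. The filter took the mean over all columns of the line, 24 h among them. PYGO1, PAR5 and ZBED6 passed only through their 24 h value, since the mean of their other columns was under the filter's minimum. A filter that leaves out the 24 h column was not run. PCDHGA6, a clustered protocadherin that gives neurons surface identity, had 210.2 at 24 h and 82.5 in DMSO, with 116, 127 and 67.8 at 2, 6 and 72 h. Its log2 change was 1.33, with a 95% interval of 0.97 to 1.73 from counting error alone. PCDHB8, of the neighbouring beta cluster, had 291 at 24 h and 140.3 in DMSO (1.04), with 170 and 172 at 2 and 6 h and 125 at 72 h. PROX1, a homeobox factor of lymphatic vessels, had 177 at 24 h and 81.4 in DMSO (1.10), with 85.1, 53.5 and 29.2 at 2, 6 and 72 h. PROX1 was thus highest at 24 h and lowest at 72 h, where its log2 change was -1.42.

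OPRD1, the delta opioid receptor, had 204 at 24 h and 92.4 in DMSO (1.13), and 104.5, 151 and 138 at 2, 6 and 72 h. PYGO1, a cofactor of beta-catenin, had 85.8 at 24 h and 41.4 in DMSO (1.02), and 62.6, 36.9 and 26.7 at 2, 6 and 72 h. PAR5, a noncoding RNA of the Prader-Willi region, had 72.9 at 24 h and 33.0 in DMSO (1.10), and 65.2, 54.0 and 44.7 at 2, 6 and 72 h. In PAR5 the DMSO column stood apart, since all 4 dTAG columns were above it. Counting intervals were 0.79 to 1.52 for OPRD1, 0.52 to 1.64 for PYGO1 and 0.54 to 1.79 for PAR5.

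The other 4 higher genes included 3 that share exons or reads with a larger gene. ZBED6, a zinc finger repressor whose coding sequence sits inside ZC3H11A, had 129.6 at 24 h and 51.4 in DMSO (1.30), while ZC3H11A had 5852 at 24 h and 5825 in DMSO. KIAA0754 had 180.4 at 24 h and 72.9 in DMSO (1.28), and MACF1, the cytoskeletal linker at the same place, 7434 at 24 h and 6406 in DMSO (0.21). FAM106A had 125 at 24 h and 52.6 in DMSO (1.22), and the overlapping USP32P2 1748 at 24 h and 1511 in DMSO (0.21). LOC100132832, named because it passed although the naming rule leaves such names out, had 224 at 24 h and 97.2 in DMSO (1.19). For ZBED6, KIAA0754 and FAM106A the authors' estimate could assign the same reads to either partner, so their change is uncertain.

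The 10 lower genes spanned 15.7 to 19607 normalised estimated counts at 24 h and 50.4 to 42273 in DMSO. Noncoding RNAs were the most abundant of them. MALAT1, a long noncoding RNA of nuclear speckles, had 19607 at 24 h and 42273 in DMSO, with 45422, 45858 and 56080 at 2, 6 and 72 h. Its log2 change was -1.11 at 24 h and 0.41 at 72 h. BCYRN1 (BC200), a short cytoplasmic RNA that RNA polymerase III makes from an Alu-derived gene, had 2677 at 24 h and 7704 in DMSO, with 8309.5, 10171 and 9851 at 2, 6 and 72 h. Its log2 change was -1.52, with a counting interval of -1.59 to -1.46. In both RNAs the 24 h column was less than any other column of the line by over 2-fold. The estimated counts do not show whether reads from other Alu copies were assigned to BCYRN1.

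Among protein-coding genes, HMGN5, which binds nucleosomes and loosens chromatin, had 176 at 24 h and 373 in DMSO (-1.08), with 405, 526 and 579 at 2, 6 and 72 h. FAM133B had 865 at 24 h and 1756 in DMSO (-1.02), with 1882, 2256 and 2674 at 2, 6 and 72 h. HMGN5, FAM133B, MALAT1 and BCYRN1 shared an order: 24 h lowest and the 2, 6 and 72 h columns above DMSO. HIST1H4C, a histone H4 gene, had 33.0 at 24 h and 145 in DMSO (-2.07), with 96.2, 96.9 and 99.2 at 2, 6 and 72 h. HIST1H4C falls outside the naming rule and is given because it passed the fold threshold.

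RNF5 and H3F3A have near-identical copies. RNF5, a ubiquitin ligase of the endoplasmic reticulum membrane, had 15.7 at 24 h and 93.8 in DMSO (-2.44). Its processed copy RNF5P1, 98.3% identical over 543 aligned bases, had 1795 at 24 h and 1912 in DMSO, and the sum of both had a log2 change of -0.15. H3F3A, which encodes histone H3.3 and was named after its value was seen, had 975 at 24 h and 2234 in DMSO (-1.19). Its copy H3F3AP4, identical over 283 aligned bases, had 24724 at 24 h and 26946 in DMSO, and the sum had -0.18. MRS2P2, a pseudogene, had 22.9 at 24 h and 50.4 in DMSO (-1.07), while its parent MRS2 had 859 at 24 h and 868 in DMSO. KIAA0408 had 37.7 at 24 h and 77.7 in DMSO (-1.005), and C6orf174 at the same place 335 at 24 h and 273 in DMSO (0.29). For these 4 genes the values are uncertain, since the copy or partner held more reads than the gene itself. The pairs differed little as sums, but RNF5, H3F3A and MRS2P2 were small parts of theirs. Those sums therefore cannot show whether the gene itself changed.

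**Figure D3:**
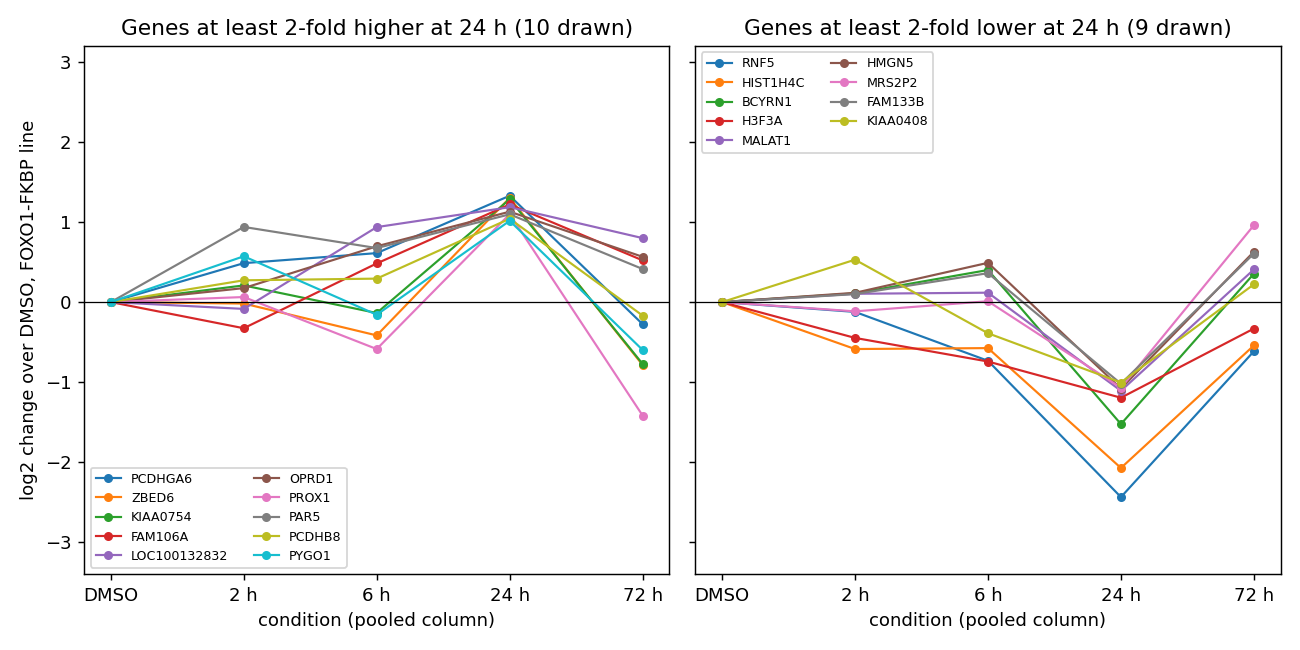
Log2 change over DMSO at each time of dTAG in the FOXO1-FKBP line for the 10 genes at least 2-fold higher (left) and 9 of the 10 at least 2-fold lower (right) at 24 h; each line is 1 gene and each point 1 pooled column. At 72 h PROX1 is at -1.42 and MRS2P2 at 0.96. The genes were chosen by their 24 h change, so values nearer DMSO at the other times follow largely from that choice.

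At 72 h, 4 of the 10 higher genes were above DMSO and 6 of the 10 lower genes were. The median log2 change of all genes tested at 72 h was -0.0055, so genes lay about equally on both sides. The counts of 4 and 6 are near that and are not read as a reversal. The 24 h column was outside the range of the other 4 columns for all 20 genes, and for 3573 (29.9%, above) and 3640 (30.5%, below) of all genes tested. For all 20 genes the 95% counting interval of the change lay off 0, but it covers counting error only. Both statements follow largely from choosing these genes by their 24 h change, so neither is separate evidence for them. Over 5 pairs of same-group libraries of the clone table, the largest difference of a gene was under its 24 h change for 5 of the 20 (PCDHGA6, LOC100132832, PCDHB8, HIST1H4C and BCYRN1) and for 6.27% of all genes with both values. The 20 genes were chosen by the size of that change, so a share above 6.27% follows largely from the choice and is not separate evidence. Against the mean of the DMSO, 2 h and 6 h columns, 4 of the 10 higher and 8 of the 10 lower genes were still past 2-fold. With a minimum mean of 200 in place of 50, 0 genes were 2-fold higher and 6 lower. MALAT1 differed by up to 1.56 between such libraries, ZBED6 by 3.63 and RNF5 by 4.89. Just under 2-fold stood B7H6 (0.99), NTN3 (0.98), LOC731275 (0.97), ZC3HAV1L (0.97), KIAA1919 (0.95) and PCDHGB2 (0.95) on the higher side. On the lower side stood MAGOH (-0.90), GMFG (-0.89), ARHGAP15 (-0.88), LOC100505894 (-0.87), HNRNPA1P10 (-0.86) and LOC728640 (-0.83).

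Clustered protocadherins, cell adhesion genes of which each cell uses a few, were mostly higher. Of 53 genes listed 16 passed the filter, 15 lay above 0 at 24 h, and 5 were at least 1.5-fold higher, with a list median of 0.27. Over all genes tested 49.2% lay above 0 and 1.09% were at least 1.5-fold higher. Same-group libraries of the clone table gave medians of these genes of up to 0.31 from 0. The list median was 0.18 with a minimum mean of 200 and 0.39 with the mean taken over DMSO and 24 h. Beside PCDHGA6 and PCDHB8, PCDHGB2 had 159 at 24 h and 81.4 in DMSO, PCDHGB1 149.6 at 24 h and 77.0 in DMSO (0.94), and PCDHGA1 89.8 at 24 h and 56.9 in DMSO (0.64). PCDHGC3, the most abundant, had 4270 at 24 h and 3476 in DMSO (0.30). PCDHB9 lay below 0, at -0.034. The gamma genes share their last exons, so reads there could have been assigned to several of them. At 72 h the median of the 16 genes was -0.25 against the same DMSO column. The list had been drawn up with 24 h results known, so its direction is not independent evidence.

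Heat shock genes were mostly lower, and so was a list that joins nuclear noncoding RNAs with snoRNA host genes. Of 20 heat shock genes 19 passed, 18 lay below 0 at 24 h, and the median was -0.23. Over all 11943 genes tested, 6068 lay below 0 and 0.569% were at least 1.5-fold lower. HSPE1, the mitochondrial co-chaperonin, had 6796 at 24 h and 10292 in DMSO (-0.60), the only heat shock gene past 1.5-fold. HSP90AA1, the inducible cytosolic HSP90, had 48554 at 24 h and 70087 in DMSO (-0.53). HSPD1, the partner of HSPE1, and the co-chaperone DNAJA1 both had -0.34. Among 14 tested nuclear noncoding RNAs and snoRNA host genes, 12 lay below 0 and the median was -0.22. MALAT1 was followed by SNHG8 (-0.52) and SNHG5 (-0.36), while MEG3, an imprinted noncoding RNA, had 0.33 and NEAT1, of paraspeckles, -0.18. TUG1 had 0.17 and KCNQ1OT1 -0.24. The snoRNA host genes all lay below 0, whereas the other noncoding RNAs of the list lay on both sides. Corrected for transcript length and GC content, the medians were -0.17 for heat shock genes and -0.097 for the noncoding RNAs, and HSPE1 (-0.38), HSPD1 (-0.23), DNAJA1 (-0.19), SNHG8 (-0.23), SNHG5 (-0.12) and MEG3 (0.17) were nearer 0 by over 1.5 times. Against the same DMSO column the heat shock median was -0.35, 0.0067 and -0.067 at 2, 6 and 72 h, and that of the noncoding RNAs 0.065, 0.12 and 0.24. Same-group libraries of the clone table gave medians of up to 0.42 from 0 for the heat shock genes and 0.34 for the noncoding RNAs, more than at 24 h.

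Muscle and fusion programmes stayed near DMSO as lists. Muscle contractile and differentiation genes (44 of 55 tested) had a median of 0.022 with 23 above and 21 below 0. CHRNG, the fetal acetylcholine receptor subunit, had 1435 at 24 h and 922 in DMSO (0.64) and was the only one past 1.5-fold. RYR1, the calcium release channel, had 7385 at 24 h and 4986 in DMSO (0.57). TNNC1, slow troponin C, had 129 at 24 h and 179 in DMSO (-0.47). Myogenic transcription factors (16 of 20) had a median of 0.10, with PAX3 at 671 at 24 h and 521 in DMSO (0.36). Published PAX3-FOXO1 targets (32 of 35) had 0.051, from -0.29 for CXCR4, a chemokine receptor, to 0.38 for ALK, a receptor tyrosine kinase. The length and GC correction left 0.21 for RYR1, -0.12 for CXCR4 and 0.16 for ALK, and a median of -0.0056 for the fusion targets. Same-group libraries gave medians of up to 0.29 from 0 for the muscle genes, 0.27 for the myogenic factors and 0.24 for the fusion targets.

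The other lists had medians between -0.16 and 0.14 at 24 h. These are small values: over all 29 lists with a median, 18 turned sign or reached 0 under at least 1 alternative processing, the FOXO-responsive list among them. Cell cycle lists had -0.080 (S phase, 30 genes, with the clamp PCNA at -0.28) and -0.044 (G2/M, 30 genes, with the kinesin CENPE at -0.30). Ribosome biogenesis and MYC-responsive genes (25) had -0.093, with POLR1A at 0.41 and the nucleolar genes NOP58 (-0.37), FBL (-0.36) and NPM1 (-0.35). ATF4-responsive (20 genes), p53-responsive (21), BCL2 family (13), hypoxia-responsive (20) and immediate-early genes (22) had -0.074, -0.079, -0.050, -0.041 and -0.024. Interferon-stimulated genes (11) had -0.028, with ISG15 at -0.55 and IRF7 at 0.36, and a median that ran from -0.29 (minimum mean of 200) to 0.045 (library totals). Metal-responsive genes (7) had -0.11, with the metallothioneins MT1X (-0.55) and MT2A (-0.46) lower and the zinc exporter SLC30A1 at 0.52. SLC30A1 had 81.8 normalised estimated counts at 24 h, 56.4 in DMSO and 138 at 2 h, and -0.058 against the mean of DMSO, 2 h and 6 h. Cholesterol synthesis genes (21) had -0.018, with PMVK, a kinase of the mevalonate route, at -0.68 (235 at 24 h and 377 in DMSO), past 1.5-fold. YAP/TEAD-responsive genes (18) had 0.019, with 9 above and 9 below 0. CRIM1 (-0.49), ANKRD1 (-0.46) and CYR61 (-0.42) were lower, and ARHGEF17 (0.34, and 0.014 after the length and GC correction) and LATS2 (0.29) higher. Circadian genes (15) had 0.090, fibroblast and matrix genes (12) 0.028, the line's own markers (12) 0.14, endothelial markers (2) -0.16, and replication-dependent histones (5) -0.13. The length and GC correction turned the circadian median to -0.020 and the histone median to 0.16, and left -0.064 for PCNA, 0.21 for POLR1A, -0.19 for NOP58, -0.16 for NPM1 and -0.28 for MT1X. CENPE had -0.19 against the mean of DMSO, 2 h and 6 h.

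Several larger families, picked after the values had been seen, had medians away from 0. Genes with RPL or RPS names (97 tested) had a median of -0.25 with 86 below 0. They were taken by name, so they include more than cytosolic ribosomal proteins, for example RPL22L1 and any kinase named RPS6K. Mitochondrial ribosomal proteins (78) had -0.18 with 71 below 0, and complex I genes (43) -0.21 with 39 below 0. Over all 11943 genes tested, 6068 lay below 0 and 5875 above. COX, ATP5 and UQCR genes (46) had -0.22, SNRP and LSM genes (25) -0.26, HNRNP genes (21) -0.22, proteasome subunits (36) -0.19 and SRSF genes (12) -0.16. Collagen genes (26) had 0.21 with 22 above 0. Zinc finger genes (439) had 0.031 and solute carriers (189) 0.042. Against the same DMSO column, the RPL and RPS genes had 0.14 at 6 h and 0.21 at 72 h, and collagens -0.13 at 6 h and -0.23 at 72 h. Same-group libraries of the clone table gave medians of up to 0.55 from 0 for cytosolic ribosomal proteins, 0.43 for mitochondrial ones, 0.52 for complex I, 0.53 for SNRP and LSM genes and 0.47 for collagens, more than at 24 h. For HNRNP genes they gave up to 0.12. The families below 0 had median transcript lengths of 1257 to 3302 bases and collagens 6446 bases, though the check is void for COX, ATP5 and UQCR genes, since 29 of 46 had a length. Corrected for length and GC content, the medians were -0.067 for the RPL and RPS genes, -0.044 for complex I, -0.18 for HNRNP genes and 0.0040 for collagens.

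Change at 24 h moved with transcript length and GC content over the 10746 genes with an annotated transcript. In 4 groups of equal size by length, shortest to longest, the median log2 change was -0.11, -0.016, 0.030 and 0.065. In 4 groups by GC content, lowest to highest, it was -0.094, -0.044, 0.028 and 0.12. Across genes, which are not independent replicates, Spearman's rho was 0.31 with length and 0.39 with GC content. The rho with length was -0.035 at 2 h, -0.37 at 6 h and -0.51 at 72 h, and with GC content 0.043, 0.088 and 0.50. In the fusion line at 24 h both were near 0, at -0.0099 and -0.031. The 7 higher genes with a length had a median of 8488 bases and the 9 lower ones 1909 bases. For the higher genes this check is void, since 3 of 10 had no length. After the correction 6 of those 7 higher genes were at least 2-fold, and 4 of those 9 lower genes (RNF5, HIST1H4C, BCYRN1 and MALAT1). The part of length and GC content in these results was not tested further.

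**Figure D4:**
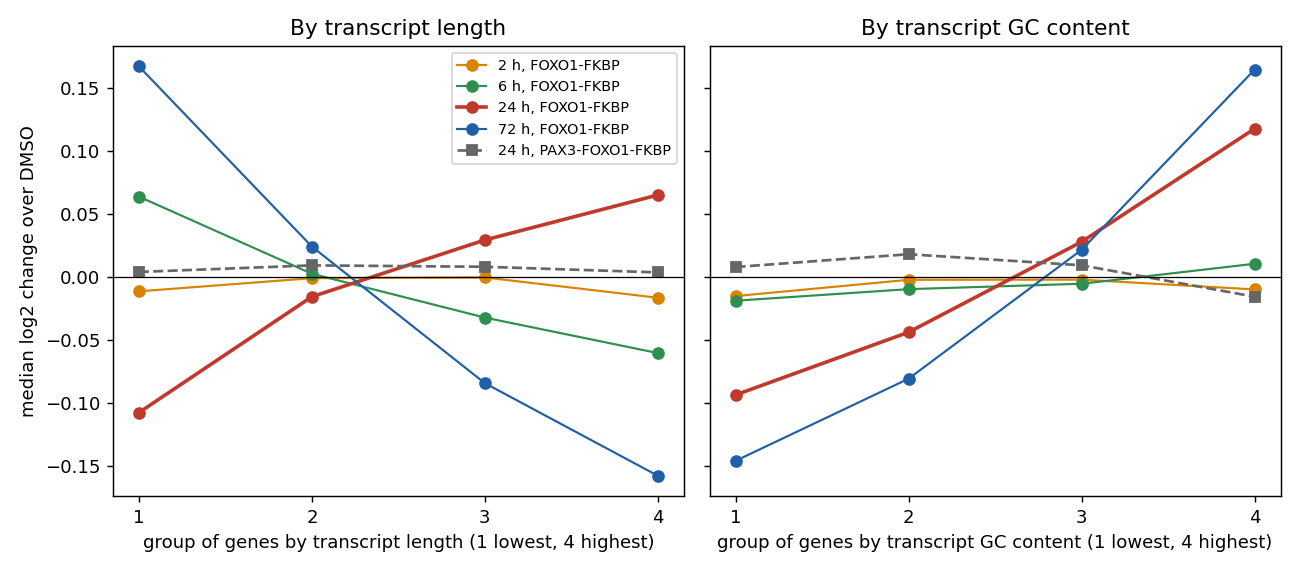
Median log2 change over DMSO in 4 groups of equal size ranked on transcript length (left) and GC content (right), for the 4 times of dTAG in the FOXO1-FKBP line and for 24 h in the PAX3-FOXO1-FKBP line (dashed). At 24 h in the FOXO1-FKBP line the medians climb from -0.11 to 0.065 with length and from -0.094 to 0.12 with GC content, and the 72 h line slopes the other way with length.

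Loss of wild-type FOXO1 and loss of the fusion were set side by side at 24 h, each line against its own DMSO column. In the fusion line 169 genes were 2-fold higher (1.38% of 12288) and 210 lower (1.71%), and the SD of log2 changes was 0.39, beside 0.23 in the FOXO1-FKBP line. Of 11729 genes tested in both lines, 0 were at least 2-fold in opposite directions and 1 was at least 2-fold in the same direction. Loss of FOXO1 gave too few changes of that size for either count to show how the lines compare. Of the 10 genes higher after FOXO1 loss, 2 lay above 0 in the fusion line, FAM106A (0.41) and PYGO1 (0.17). Of the 10 lower, 3 lay above 0 there, BCYRN1 (0.34), KIAA0408 (0.20) and MALAT1 (0.051). Over all 12288 genes tested in the fusion line the median log2 change was 0.0096, so genes lay about equally on both sides. With 10 genes each way, the counts of 2 and 3 are not read as a direction. PAR5 had -1.31 in the fusion line, where its level was below the filter (4.83 at 24 h and 15.0 in DMSO). List medians differed in size: muscle genes had 0.022 in the FOXO1-FKBP line and 0.99 in the fusion line, published fusion targets 0.051 and -0.64, and FOXO-responsive genes 0.0024 and 0.048. These differences between lines have no replicate and were not tested.

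**Figure D5:**
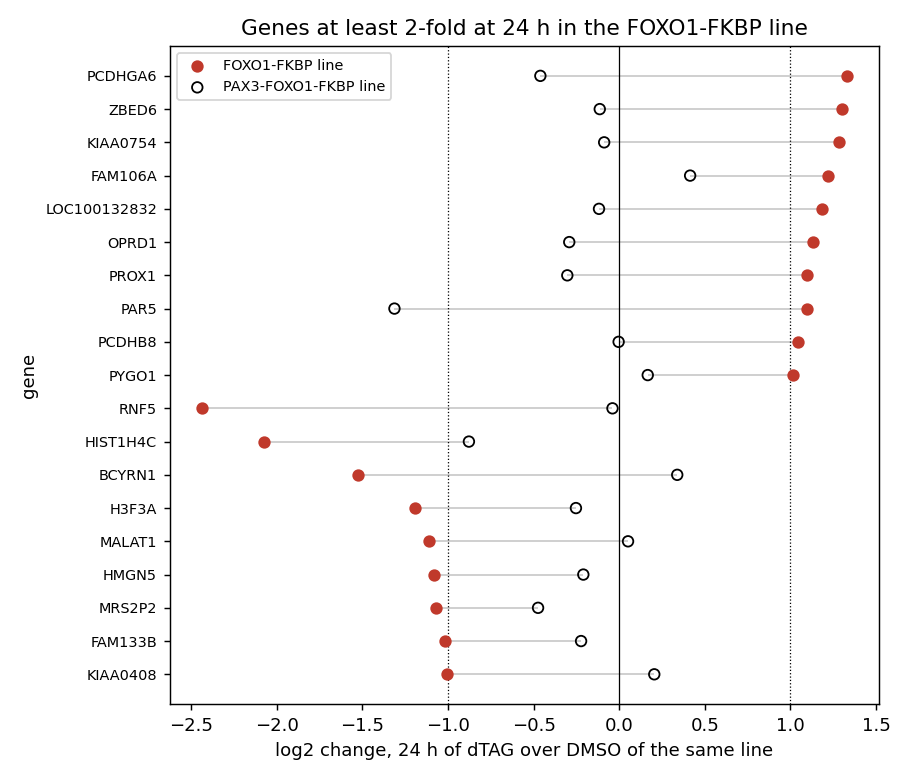
Log2 change of 24 h of dTAG over DMSO for the 10 genes at least 2-fold higher and 9 of the 10 at least 2-fold lower in the FOXO1-FKBP line (filled circles), with the same genes in the PAX3-FOXO1-FKBP line (open circles) and dotted lines at 2-fold; each point is 1 pooled column over another. BCYRN1 is -1.52 in the FOXO1-FKBP line and 0.34 in the fusion line, and PAR5 is 1.10 in the FOXO1-FKBP line and -1.31 in the fusion line, where it is below the filter.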

How the data were processed

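RNA from Rh30 derivatives was sequenced. Per the submitters' processing notes, Cuffdiff 2.1.1, Bowtie2 and Trimmomatic 0.32 were used with build hg19; their roles and the annotation are not given there. For the time courses the authors deposited estimated counts, 1 column per condition per the file headers, so each column pools 2 samples, and 73.6% of values are not whole. For parental cells and clones they deposited raw counts, 1 column per library. The labels do not say whether paired samples were separate cultures.

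Columns were scaled with TMM factors (edgeR 4.0.16, R 4.3.3) to a common effective total. A log2 change adds a prior count of 2 to both normalised values. Genes needed a mean of at least 50 over the 5 columns. Left out were 39 read-through names past that filter and 21 names listed at 0 in a column where another held 10 or more. A call is a size rule, at least 2-fold, with no test. Counting intervals are exact binomial (Clopper-Pearson, 95%) on the estimated counts of both columns. Length and GC content came from the GENCODE release 29 transcript of the same symbol (90.0% of tested genes), and their correction subtracts a fit with terms up to degree 3. Files use hg19 and both references GRCh38, so positions are printed only with RefSeq sequences. Among all names, 28 are dates made by a spreadsheet, 19 of them tested.

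Named genes are the FOXO family, genes past 2-fold, up to 4 members of each list with the largest change, and the 6 nearest genes under 2-fold each way. LOC, histone and ribosomal protein names fall outside the rule. Other genes were named for their role in a list or after their values were seen. The members and lists were chosen with earlier results of these data known. The scaling was checked on simulated counts. Alternatives were library totals, DESeq2 1.42.0 size factors, other prior counts, filters and references, and the length and GC correction. Of the 10 genes past 2-fold lower, 1 is not reported here.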

Additional observations from a re-analysis of the deposited data

How the results depend on the processing

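No paired analysis was possible because each time-course column pools both replicates and carries no replicate number, and for the same reason no replicate could be left out. The 10 higher and 10 lower genes past 2-fold became 19 higher with library totals, 4 lower with the length and GC correction, 51 and 36 with a minimum mean of 10, 188 and 135 with no minimum, 0 and 6 with a minimum of 200, and 130 and 68 at 1.5-fold. The other 16 such counts, from library totals (8 lower), the correction (7 higher), DESeq2 size factors, prior counts of 0.5 and 10, the mean of DMSO, 2 h and 6 h as the comparator, the mean over DMSO and 24 h, and kept zeros or read-through names, stayed within 1.5 times. All 20 genes had their direction under the 6 alternatives that give a gene a value, 16 of them under the correction, where 4 lack a length. Against the mean of DMSO, 2 h and 6 h, 12 of the 20 stayed past 2-fold, 18 with library totals and 16 with a prior count of 10. The FOXO-responsive median lay between -0.0007 and 0.076. Of the medians of all lists, 10 of 289 alternative values were counted as moved against the spread between same-group libraries. That spread is not the largest same-group median cited above, and some counted shifts were under the latter. With library totals the p53-responsive median went from -0.079 to -0.0052, beside a largest same-group median of 0.15. Of the values of single named genes, 106 of 732 moved beyond their counting interval. Of the 106, 54 came from the correction, which brought 51 of 117 named genes nearer 0 by over 1.5 times and turned 7 in sign. With pooled columns, depth limits only the counting error, and spread between cultures is unknown for every value at 24 h.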

Other observations

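Values at an exact 0 or under read-through names were left out of the comparison. TMEM106C was listed at 0 at 24 h, against 2865 normalised estimated counts in DMSO and 2861, 3117 and 3315 at 2, 6 and 72 h. EEF1A1, a translation elongation factor that every cell uses, was listed at 0 at 72 h and had 443421 at 24 h and 467062 in DMSO. PEG3 was also listed at 0 at 72 h and had 11743 at 24 h and 11958 in DMSO. Of the 39 read-through names past the mean filter, 3 lay above DMSO by 2-fold or more at 24 h and 2 lay below by as much. PALM2-AKAP2 had 620.2 at 24 h and 259.7 in DMSO, and 131.0, 74.0 and 13.2 at 2, 6 and 72 h. SERF2-C15ORF63 had 13.7 at 24 h and 145 in DMSO, and 704 at 6 h. These names were chosen after their values were seen.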
